A study of Mus musculus with 7 samples.

Results

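The genes described here are 10 growth genes that are known for high activity in the embryo and, in many tumors, again later: Hmga1, Hmga2, Igf2bp1, Igf2bp2, Igf2bp3, Lin28b, Igf2, H19, Dlk1 and Peg3. They were matched by their mouse gene symbol to Ensembl identifiers, and all 10 were found among the 46603 genes counted in each library. The set was selected by a reader of the same comparison with its values in view, so the difference of each of the 10 genes between the tumors is given as a description, with no test. The 7 libraries are bulk RNA-seq of tumor pieces, 3 from tumors derived from KO cells and 4 from tumors derived from KO + NM1 cells.

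Both groups carry a deletion of nuclear myosin 1 (NM1), an isoform of the motor protein Myo1c. The KO cells were made from wild-type mouse embryonic fibroblasts (MEFs) by CRISPR/Cas9. For KO + NM1, a lentivirus returned NM1 tagged with HA and V5 to KO cells, which were kept by neomycin selection. Single clones of the rescue cells were tested for the tag, so a feature of a clone and the return of NM1 cannot be told apart. The cells were injected into female nude mice that were 16 weeks old, and tumors were taken at 30 days according to the labels. The paper's methods give the site as under the skin of the right flank, and its results as the mammary pads. Nude mice lack mature T cells but keep macrophages, B cells, vessels, fat and muscle, and a count per gene does not separate host from injected cells. The labels give 1 tumor per condition cut into 4 pieces, so the spread between pieces may hold no difference between mice. No library of wild-type cells was analysed here.

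The genes work at linked steps of growth control. Hmga1 and Hmga2 are small proteins that bend AT-rich DNA and are abundant in embryonic and transformed cells. Igf2bp1, Igf2bp2 and Igf2bp3 bind messenger RNAs, Igf2 mRNA among them, and protect or localize them. Lin28b blocks the maturation of let-7, a family of microRNAs that silences Hmga2, the Igf2bp genes and Lin28b itself in differentiated tissue. Igf2 (a fetal growth factor) and H19 (a non-coding RNA) are imprinted neighbours that share enhancers and are read from opposite parental copies. Dlk1, a membrane protein of precursor cells including preadipocytes, and Peg3, a zinc finger protein, are read from the paternal copy.

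A sequence match to the let-7 family occurs in 7 of these genes. In the RefSeq microRNA table, 11 of 1679 mature mouse microRNAs carry the seed of let-7a at bases 2 to 8. The sequences of 4 of them are shown because the seed, in capitals, is the part that the messenger RNAs match.

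mmu-let-7a-5p: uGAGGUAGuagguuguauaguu
mmu-let-7b-5p: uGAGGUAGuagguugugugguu
mmu-let-7g-5p: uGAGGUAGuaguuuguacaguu
mmu-miR-98-5p: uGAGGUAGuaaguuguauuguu

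The complement of the seed, CTACCTC, was searched on the sense strand of the longest annotated 3′ UTR of each protein-coding gene. It was found in 7 of the 9 coding genes, and in 9.05% of all 20722 coding genes. Hmga2, the Igf2bp genes and Lin28b were already known as targets of let-7, so nothing is read from an excess of matches. Hmga2, Igf2bp1 and Lin28b held 4 matches each. Of all coding genes, 0.150% (31 genes, these 3 among them) held 3 or more, and 0.0579% held at least 4. The 12 matches of Hmga2, Igf2bp1 and Lin28b are shown with the matched letters in capitals, since these genes are the extremes of the set. Coordinates are on GRCm38 in the 3′ UTR of each gene on the minus strand.

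Hmga2 chr10:120364224-120364245: ccgacattcaatttCTACCTCa
Hmga2 chr10:120362987-120363008: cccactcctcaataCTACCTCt
Hmga2 chr10:120362549-120362570: tgatttgcaaggaaCTACCTCc
Hmga2 chr10:120361691-120361712: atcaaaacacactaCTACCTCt
Igf2bp1 chr11:95961778-95961799: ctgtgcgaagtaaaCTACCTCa
Igf2bp1 chr11:95959357-95959378: agcagtgctattaaCTACCTCa
Igf2bp1 chr11:95958763-95958784: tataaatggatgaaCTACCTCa
Igf2bp1 chr11:95958140-95958161: cttttggttttaatCTACCTCt
Lin28b chr10:45381022-45381043: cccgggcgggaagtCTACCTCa
Lin28b chr10:45378648-45378669: atacttgttagtaaCTACCTCt
Lin28b chr10:45378476-45378497: tttacagcacatggCTACCTCc
Lin28b chr10:45377060-45377081: aatgatggcaccgaCTACCTCt

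A match followed by an A, as in 3 of the 4 of Igf2bp1, is the stronger kind known as an 8mer. It was present in 5 of the 9 coding genes and in 3.06% of all coding genes. Hmga1, Igf2bp2, Igf2bp3 and Peg3 held 1 match each, and Igf2 and Dlk1 held none. Long UTRs hold more matches. The UTR of Igf2bp1 is 6337 bases long, and of the 362 genes with a UTR at least as long 45.9% held a match. By the same measure the share was 33.9% for Lin28b, 29.3% for Peg3, 25.3% for Hmga2, 20.5% for Igf2bp3, 18.9% for Igf2bp2 and 16.1% for Hmga1. This measure covers at least 1 match, and a share by length for 4 matches was not computed. The UTRs of Igf2 (3050 bases) and Dlk1 (2976 bases) are also long against a median of 965.5 bases over all coding genes. A match is a string of letters and was not tested as a site of binding.

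Each library held between 24088309 and 28326568 counts on genes. Mitochondrially encoded genes took 1.81% to 2.14% of the counts in the KO pieces. In KO + NM1 pieces 01 to 04 they took 5.11%, 10.5%, 18.5% and 7.77%. Values are given as CPM, the counts divided by the TMM-scaled size of the library, and 3 counts, the most that a count of 0 allows, correspond to 0.0991 to 0.148 CPM, which covers counting error only. Over 16887 genes tested with edgeR, 17.1% were called higher and 20.3% lower in the KO pieces, where a called gene has at least a 2-fold change with an adjusted p below 0.05. KO + NM1 piece 01 stood apart from the other KO + NM1 pieces, with rank correlations of 0.859 to 0.865 across genes, against 0.982 to 0.990 among the others. The count of Myo1c, which holds all its isoforms, was 303 ± 12.1 CPM (SD, n = 3) in KO and 408 ± 23.1 CPM (SD, n = 4) in KO + NM1, and it checks the NM1 isoform in no library. Fibroblast markers were high in both groups, at 10384 to 16849 CPM summed over 12 genes in the KO pieces and 4426 to 16922 CPM in the KO + NM1 pieces, with 1 called higher (Vim) and 4 lower (Pdgfra, Pdgfrb, Dcn and Lum) in the KO pieces.

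The pieces also differed in other tissue markers, and the part of these in the values below was not tested beyond what is stated. All 12 proliferation markers were called higher in the KO pieces, with a summed level of 2572 to 3234 CPM against 89.0 to 286 CPM. All 10 markers of mature skeletal muscle were called higher, at 2285 to 18867 CPM against 7.81 to 25.9 CPM, and Ckm, Myh4 and Cacna1s were at or under 3 counts in every KO + NM1 piece. All 10 white adipocyte markers were called lower, at 122 to 309 CPM against 4923 to 37049 CPM, and none of them was at the floor in all KO pieces. Macrophage markers summed to 3757 to 4294 CPM against 735 to 2588 CPM, with 8 of 10 called higher and 1 lower, and all 8 endothelial markers were called lower, at 215 to 248 CPM against 1185 to 1708 CPM. Of 7 tested mammary epithelium markers, 5 were called lower, at 3.70 to 67.7 CPM against 311 to 1322 CPM. Of 7 Schwann cell markers, 6 were called lower, at 109 to 120 CPM against 213 to 582 CPM. In bulk tissue, fewer cells of a type and less RNA per cell cannot be told apart.

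By the same call rule 7 of the 10 genes counted as higher and 2 as lower in KO, beside 17.1% and 20.3% of all genes tested, and in those 9 genes no KO piece overlapped a KO + NM1 piece. Over all genes tested, 30.5% lay higher in every KO piece than in any KO + NM1 piece and 26.4% lay lower. Since the genes were chosen from this contrast, nothing is read from these counts. The Hmga, Igf2bp and Lin28b genes and H19 were the higher ones, Dlk1 and Peg3 the lower ones, and Igf2 overlapped between the tumors.

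**Figure D1:**
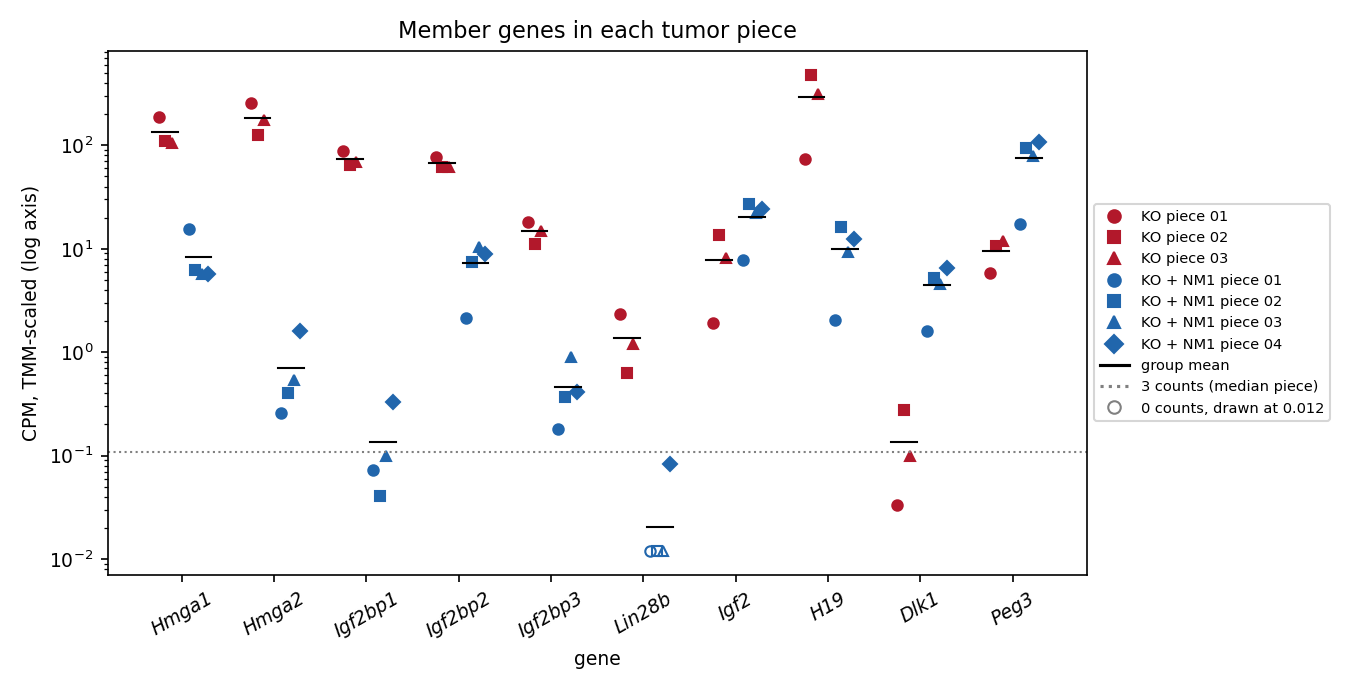
CPM on a log axis of each of the 10 genes in 3 KO pieces (red) and 4 KO + NM1 pieces (blue), with group means as bars, the level of 3 counts as a dotted line and counts of 0 as open symbols. Hmga2 lay between 126 and 258 CPM in the KO pieces and at most at 1.60 CPM in the KO + NM1 pieces, while the groups overlap for Igf2.

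Hmga2 lies on chromosome 10 from 120361275 to 120476469 of GRCm38. It was counted at 258, 126 and 174 CPM in KO pieces 01, 02 and 03 and at 0.255, 0.407, 0.543 and 1.60 CPM in KO + NM1 pieces 01 to 04. The lowest KO piece was 78.3-fold above the highest KO + NM1 piece. The fitted log2 fold change, KO minus KO + NM1, was 8.04 with a standard error of 0.59, and 8.84 without KO + NM1 piece 04. The KO + NM1 values rest on 7, 10, 11 and 39 reads, so they are above the floor but poorly resolved. An antisense gene that shares 140 exon bases with Hmga2, 1700006J14Rik, had 65, 8 and 36 counts in the KO pieces and 0 to 3 in the KO + NM1 pieces. The microRNA gene Mir763, inside an intron of Hmga2, had 38, 23 and 19 counts in the KO pieces and 0 in every KO + NM1 piece, which is at least 28.9-fold higher against a floor of 3 counts over the KO + NM1 pieces.

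Hmga1, on chromosome 17 from 27556497 to 27563674, read 187, 110 and 106 CPM in the KO pieces and 15.4, 6.22, 5.68 and 5.76 CPM in the KO + NM1 pieces. Its level thus stayed above the floor in both tumors. The log2 fold change was 4.02 (SE 0.42). KO + NM1 piece 01, with the highest Hmga1 of its group, also had the highest summed proliferation markers (286 CPM against 89.0 to 118 CPM). Its macrophage (2588 CPM against 735 to 1025 CPM), B and plasma cell (7084 CPM against 209 to 271 CPM) and precursor muscle markers were the highest too. The part of any of these lists in the Hmga1 value was not tested. Hmga1b, an intronless copy on another chromosome, shares reads with Hmga1, since 89.0% of its windows of 50 bases occur in Hmga1. Hmga1b had more counts than Hmga1 in every piece, 1.67 to 1.79 times as many in the KO pieces and 2.15 to 2.31 times in the KO + NM1 pieces, and it moved the same way (log2 fold change 3.63, SE 0.44, adjusted p = 0.0012 from edgeR). How many reads belong to each copy is uncertain, while Hmga2 shares no such window with Hmga1.

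Per length of merged exons (TPM, counts per length scaled to the same total in each library), the balance of the Hmga genes also differed. The ratio of Hmga2 to Hmga1 TPM was 0.432, 0.357 and 0.515 in the KO pieces and 0.00521, 0.0205, 0.0300 and 0.0874 in the KO + NM1 pieces. With the copy Hmga1b added to Hmga1 it was 0.107 to 0.159 against 0.00130 to 0.0224. Hmga1 was therefore the more abundant of the pair in every piece, and the gap was wider in the KO + NM1 pieces. With the longest annotated transcript as length, mean TPM in the KO pieces was 131 for Hmga2 and 181 for Hmga1, against 95.3 and 220 with merged exons.

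The Igf2bp genes differed in how far each of them moved. Igf2bp1, on chromosome 11 from 95957163 to 96005940, was counted at 88.3, 63.9 and 69.5 CPM in the KO pieces. In the KO + NM1 pieces it was at 0.0729, 0.0407, 0.0988 and 0.329 CPM, from 2, 1, 2 and 8 reads, and 3 of these 4 values lie at or under the floor of 3 counts. The log2 fold change was 9.05 (SE 0.55), and 9.94 without KO + NM1 piece 04, which held most of these few reads.

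Igf2bp3, on chromosome 6 from 49085223 to 49214957, was counted at 18.3, 11.0 and 14.9 CPM in the KO pieces and at 0.182, 0.366, 0.889 and 0.411 CPM in the KO + NM1 pieces. The log2 fold change was 5.00 (SE 0.50). Its exons overlap 1529 bases of Malsu1, a gene of mitochondrial ribosomes on the opposite strand. Malsu1 itself did not pass the test (18.7 ± 2.35 CPM, SD, n = 3, against 19.1 ± 5.43 CPM, SD, n = 4, edgeR adjusted p = 0.932).

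Igf2bp2, on chromosome 16 from 22059009 to 22163299, is the paralog that many adult tissues keep. It was at 77.6, 62.2 and 62.0 CPM in the KO pieces and at 2.15, 7.44, 10.4 and 8.88 CPM in the KO + NM1 pieces. This is a log2 fold change of 3.22 (SE 0.47), the smallest of the family. KO + NM1 piece 01 was the lowest of its group.

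The make-up of the family within a piece was similar among the KO pieces. In the KO + NM1 pieces the shares of Igf2bp1 and Igf2bp3 rest on few reads, 1 to 8 and 5 to 18 per piece. Of the summed Igf2bp TPM, Igf2bp1 took 41.7%, 40.4% and 41.3% in the KO pieces and 2.35%, 0.398%, 0.668% and 2.65% in the KO + NM1 pieces. Igf2bp2 took 48.0% to 51.4% in the KO pieces and 90.7% to 95.3% in the KO + NM1 pieces. Igf2bp3 was the smallest share in the KO pieces, at 8.26% to 10.5%, and took 3.92% to 7.14% in the KO + NM1 pieces. Igf2bp1 and Igf2bp2 were closer in level in the KO pieces than in the KO + NM1 pieces. How close they were depends on the gene length used: mean TPM in the KO pieces was 26.5 and 31.5 with merged exons, and 23.7 and 36.5 with the longest annotated transcript.

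**Figure D2:**
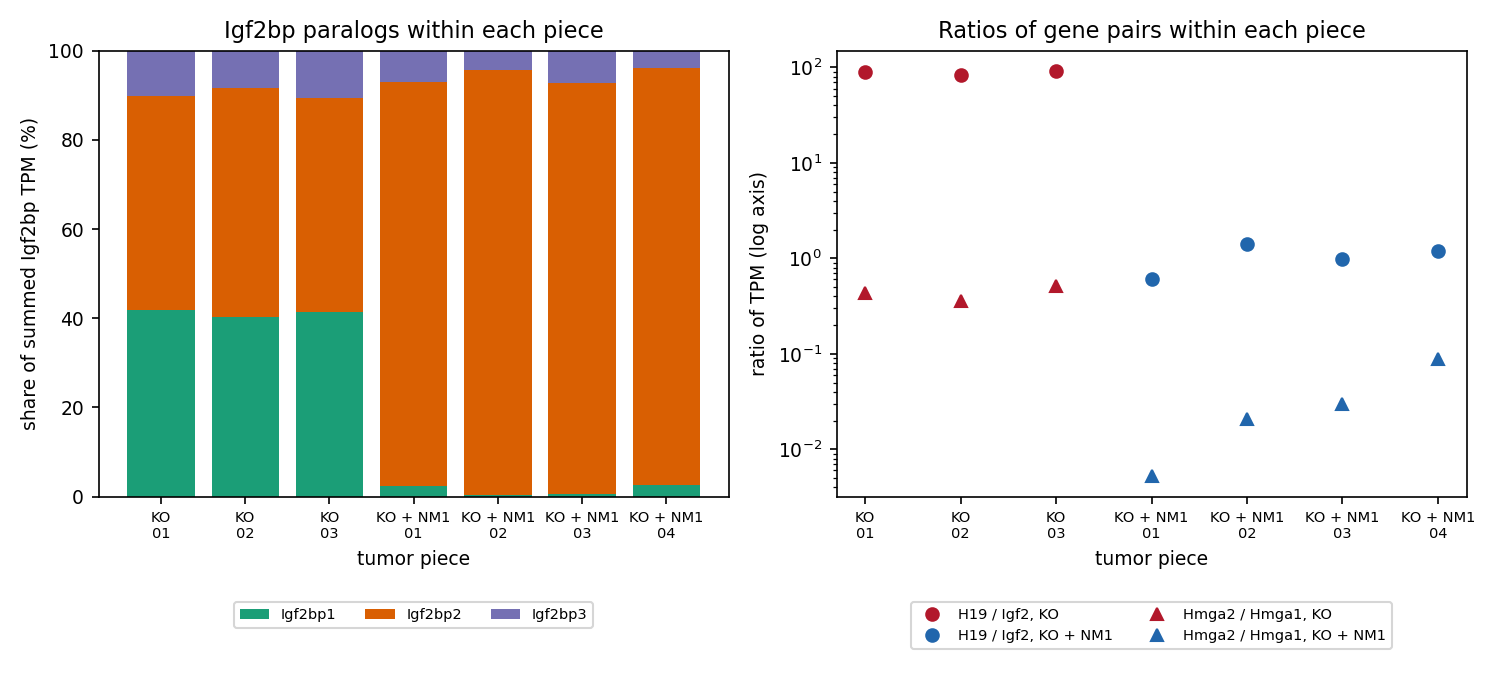
Left, the share of summed Igf2bp TPM taken by each paralog in each tumor piece, in percent; right, the ratio of H19 to Igf2 TPM (circles) and of Hmga2 to Hmga1 TPM (triangles) on a log axis in KO (red) and KO + NM1 (blue) pieces. Igf2bp1 takes 40.4% to 41.7% in the KO pieces, and the H19 to Igf2 ratio lies between 83.2 and 91.6 there.

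Lin28b, on chromosome 10 from 45376620 to 45486395, was a rare transcript even where it was found. Its counts were 70, 18 and 36 in the KO pieces, which is 2.33, 0.626 and 1.19 CPM. KO + NM1 pieces 01, 02 and 03 had 0 counts and piece 04 had 2. The ratio of the groups was 67.2 with a 95% exact counting interval of 18.2 to 561, which covers counting error only. Its paralog Lin28a was close to 0 in both tumors (0.0463 ± 0.0803 CPM, SD, n = 3, and 0.0194 ± 0.0225 CPM, SD, n = 4) and was not tested.

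Mature let-7 is too short to be counted in these libraries, and its hosts gave little. The precursor gene Mirlet7i had 1, 3 and 0 counts in the KO pieces and 6, 4, 3 and 4 in the KO + NM1 pieces, too few for a test. Mir99ahg, a long transcript that hosts a let-7c precursor, was at 9.69 ± 2.36 CPM (SD, n = 3) against 22.6 ± 11.9 CPM (SD, n = 4) and did not pass the test (edgeR adjusted p = 0.102).

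A list on the making of let-7, the handling of its precursors and its silencing, with Trim71 included, held 17 tested genes. Of these, 5 were called higher and 0 lower by edgeR, beside 17.1% and 20.3% of all genes tested. The median log2 fold change was 0.62 beside -0.0017 over all genes tested. The higher calls numbered 4 without KO piece 01, 02 or 03 or KO + NM1 piece 02 or 03, and 6 without KO + NM1 piece 01. Trim71, a stem cell ubiquitin ligase and itself a target of let-7, had 70, 165 and 122 counts in the KO pieces and 0, 0, 0 and 1 in the KO + NM1 pieces (edgeR adjusted p = 6e-04). The group ratio was 387 with a counting interval of 69.0 to 15332. Trim71 also holds 4 matches to the seed, all of them 8mers. Xpo5, which carries microRNA precursors out of the nucleus, rose from 21.0 ± 5.15 CPM (SD, n = 4) to 83.0 ± 12.9 CPM (SD, n = 3), with a log2 fold change of 1.98 (SE 0.22, edgeR adjusted p = 7.7e-04). The nuclear processing enzyme Drosha (log2 fold change 1.48) and its partner Dgcr8 (1.36) were also called higher, as was Tut7, an enzyme that adds uridine to let-7 precursors (1.00). Dicer1, which makes the mature form, was not called (log2 fold change 0.16, SE 0.17, edgeR adjusted p = 0.463), nor were any of the 4 Argonaute genes Ago1, Ago2, Ago3 and Ago4.

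Of 16 other known targets of let-7, 4 were called higher and 1 lower, with a median of 0.70. Cyclin D1 (Ccnd1) rose from 49.98 ± 21.6 CPM (SD, n = 4) to 590 ± 157 CPM (SD, n = 3), with a log2 fold change of 3.56 (SE 0.36, edgeR adjusted p = 6.8e-04). Cyclin D2 (Ccnd2) went the other way, from 104 ± 18.5 CPM (SD, n = 4) to 43.4 ± 8.60 CPM (SD, n = 3), with a log2 fold change of -1.26 (SE 0.21, edgeR adjusted p = 0.0031). The 3′ UTRs of both cyclins held no match to the seed. Nr6a1, with 8 matches, was not called (log2 fold change 0.45, SE 0.44, edgeR adjusted p = 0.422).

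Over coding genes at large, with the 10 genes left out, the share called higher was 17.2% of 12971 genes with no match, 18.1% of 1320 genes with 1 match, 21.8% of 156 genes with 2 matches and 20.8% of 24 genes with 3 or more. In the last class 5 were called higher and 5 lower, with Trim71 among the higher ones and Trim67 among the lower ones (log2 fold change -6.03). The median UTR grew from 1040 bases with no match to 4678 bases with 3 or more, so the number of matches and the length of the UTR cannot be told apart here.

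**Figure D3:**
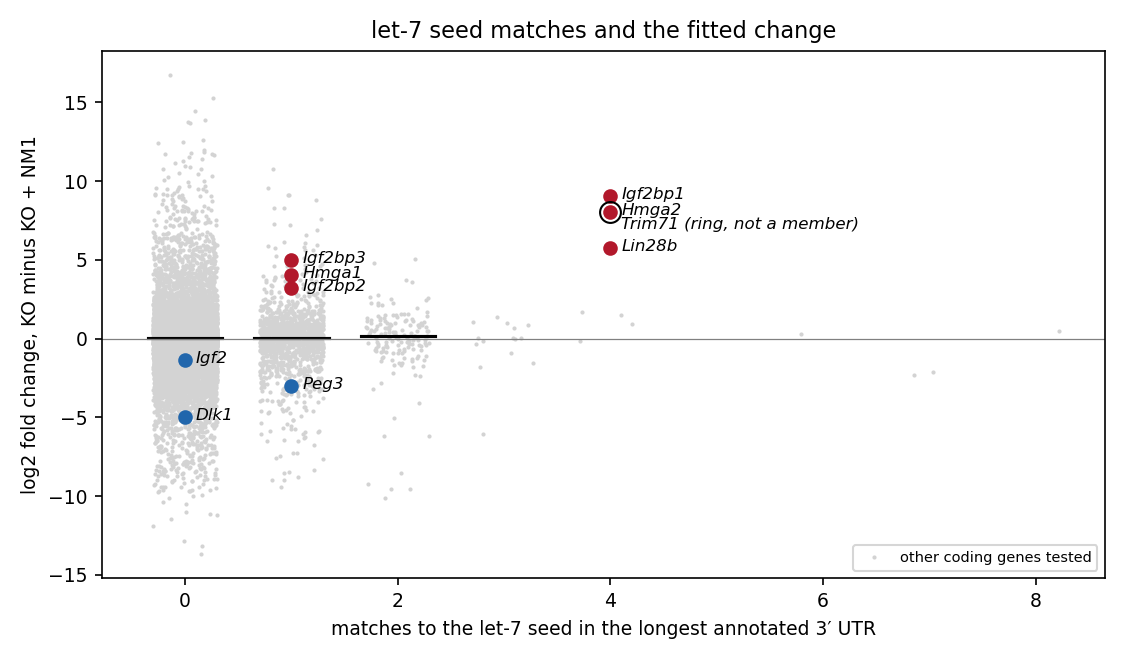
Log2 fold change (KO minus KO + NM1) against the number of let-7 seed matches in the longest annotated 3′ UTR for tested coding genes (grey, jittered sideways), with the members in red (higher in KO) or blue (lower) and black bars at the medians of classes of at least 20 genes. Hmga2, Igf2bp1 and Lin28b lie at 4 matches, with Trim71 ringed beside Hmga2, while the other genes with 3 or more matches lie on both sides of 0.

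H19, on chromosome 7 from 142575529 to 142578143, was the most variable of the higher genes. It was at 73.4, 484 and 317 CPM in KO pieces 01, 02 and 03, a 6.59-fold range within the tumor. In the KO + NM1 pieces it was at 2.04, 16.4, 9.34 and 12.5 CPM. The log2 fold change was 4.86 (SE 0.78), or 4.16 without KO piece 02, and the lowest KO piece was 4.48-fold above the highest KO + NM1 piece.

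Igf2, which lies beside H19 on the same strand (142650766 to 142666816), did not show this separation. It was at 1.93, 13.5 and 8.06 CPM in the KO pieces and at 7.81, 27.2, 22.2 and 24.1 CPM in the KO + NM1 pieces. The log2 fold change was -1.38 (SE 0.66). It was -2.14 without KO piece 02, -1.03 without KO piece 01 and -1.77 without KO + NM1 piece 01. The highest KO piece (13.5 CPM) lay above KO + NM1 piece 01 (7.81 CPM) but below each other KO + NM1 piece. The overlap thus rests on KO + NM1 piece 01, and without that piece Igf2 was called lower. KO piece 01 was the lowest of all 7 libraries. Igf2 shares 3596 exon bases with the gene Gm49394 on its strand, which was not analysed here.

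In the KO pieces, H19 and Igf2 kept a similar ratio while both varied. H19 TPM was 88.4, 83.2 and 91.6 times Igf2 TPM in KO pieces 01, 02 and 03, although each gene differed by over 6-fold between the pieces. In the KO + NM1 pieces the ratio was 0.609, 1.40, 0.979 and 1.20, a wider relative spread. The ratios of the groups do not overlap, and the ratio was computed after the values of both genes had been seen.

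H19 and Igf2 followed the same order over the KO pieces as several marker lists, muscle among them. The summed mature muscle markers were 8.26-fold higher in KO piece 02 and 6.55-fold higher in piece 03 than in piece 01, H19 was 6.59-fold and 4.32-fold higher, and Igf2 was 6.99-fold and 4.17-fold higher. The summed mammary epithelium markers were 18.3-fold and 12.4-fold higher in pieces 02 and 03 than in piece 01, the white adipocyte markers 2.53-fold and 1.47-fold, and the B and plasma cell markers 2.05-fold and 1.64-fold. Markers of precursor and regenerating muscle were 8.57-fold and 6.42-fold higher, and of these Pax7, Myf5, Myod1, Myog, Mymx and Myh3 were at or under the floor in every KO + NM1 piece. Nctc1, a muscle transcript beside H19, had 30, 135 and 142 counts in the KO pieces and 0 in every KO + NM1 piece, at least 111-fold higher. KO piece 01, with the least muscle signal of the KO pieces (2285 CPM), held 73.4 CPM of H19, and every KO + NM1 piece held less of both, with at most 16.4 CPM of H19. The part of the muscle signal in the H19 values was not tested. Among the KO + NM1 pieces the muscle markers stayed at 25.9 CPM or less, and H19 was lowest in piece 01.

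The Hmga, Igf2bp and Lin28b genes did not follow the order of the muscle markers across the KO pieces. All of these 6 genes were highest in KO piece 01, where muscle markers were lowest. Hmga1 and Igf2bp2 were lowest in piece 03, at 0.566 and 0.798 times piece 01, and the others in piece 02. From piece 01 to piece 02, Hmga2 was 0.487 times as high, Hmga1 0.590 times, Igf2bp1 0.724 times, Igf2bp2 0.801 times, Igf2bp3 0.603 times and Lin28b 0.268 times, while the summed proliferation markers were 0.795 times as high. These are 3 pieces, and the order was not tested.

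**Figure D4:**
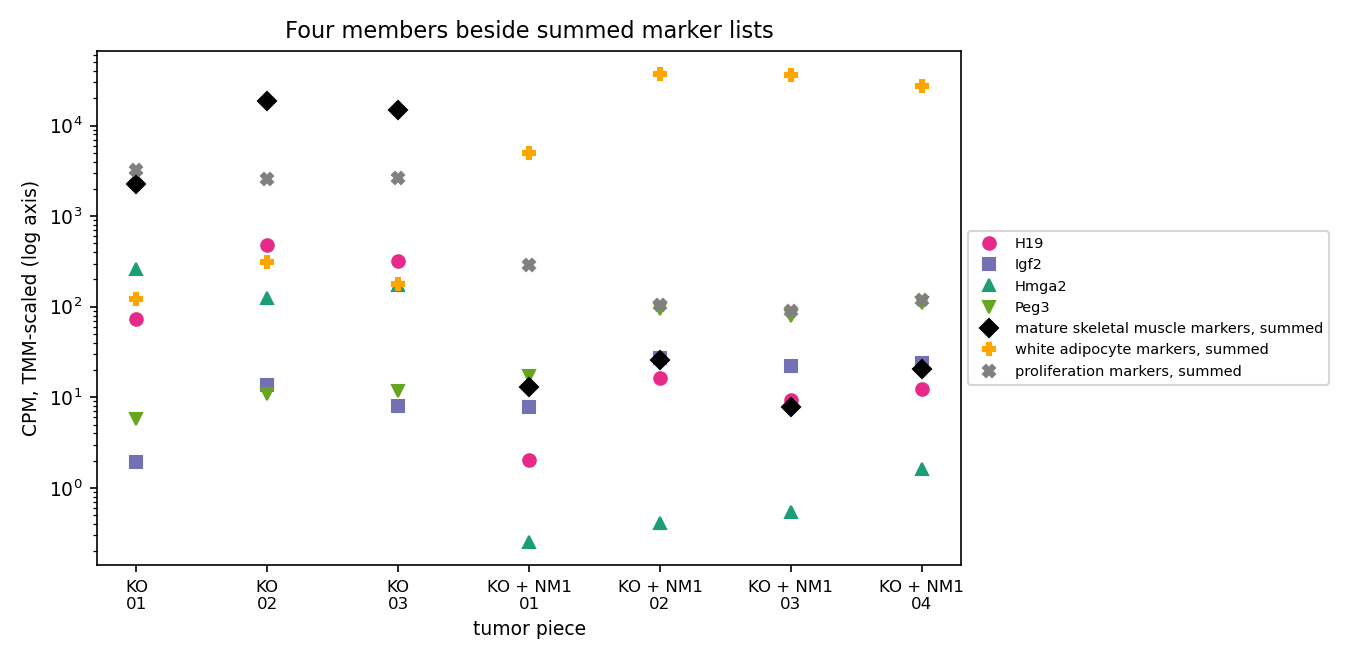
CPM on a log axis of H19, Igf2, Hmga2 and Peg3 in each of the 7 tumor pieces, beside the summed CPM of mature skeletal muscle, white adipocyte and proliferation markers. H19 and Igf2 are lowest in KO piece 01, as are the muscle markers (2285 CPM against 18867 CPM in piece 02), while Hmga2 is highest there.

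Dlk1, on chromosome 12 from 109452823 to 109463336, was nearly absent from the KO pieces, with 1, 8 and 3 counts (0.0333, 0.278 and 0.0991 CPM). In the KO + NM1 pieces it was at 1.60, 5.25, 4.59 and 6.45 CPM, and its log2 fold change was -4.99 (SE 0.74), or -6.09 without KO piece 02. Peg3, on chromosome 7 from 6703892 to 6730431, was at 5.77, 10.7 and 11.8 CPM in the KO pieces and at 17.2, 95.2, 79.5 and 109 CPM in the KO + NM1 pieces, with a log2 fold change of -2.99 (SE 0.58). KO + NM1 piece 01 was the lowest of its group for both genes and for white adipocyte markers (4923 CPM against 27298 to 37049 CPM). It was also the lowest for fibroblast, mammary epithelium, Schwann cell, keratinocyte and endothelial markers. Its macrophage, B and plasma cell, proliferation and precursor muscle markers were the highest of the group. The part of the adipocyte signal, or of any other list, in these values was not tested.

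Ordered by TPM, H19 (105 to 682) and Hmga1 (170 to 311) led the 10 genes in the KO pieces, and their ranges overlap. Hmga2 followed at 64.4 to 134 TPM, then Igf2bp2 (28.5 to 37.0) and Igf2bp1 (22.9 to 32.2), whose ranges overlap although Igf2bp2 was the higher in each piece. Igf2bp3 (4.69 to 7.89), Igf2 (1.19 to 8.20) and Peg3 (1.53 to 3.02) came next with overlapping neighbours, and Lin28b (0.240 to 0.908) and Dlk1 (0.0208 to 0.171) were last. In the KO + NM1 pieces Peg3 (4.03 to 23.8), Hmga1 (5.06 to 22.6), H19 (2.59 to 16.3) and Igf2 (4.25 to 12.3) led with overlapping ranges. Igf2bp1 (0.0102 to 0.0990) and Lin28b (0 to 0.0264) were at the end.

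Genes around the members were compared by 8 lists, and 28 of their genes were called higher and 15 lower, with Plagl1, which is on 2 lists, counted once. The count of each list stands beside 17.1% called higher and 20.3% called lower over all genes tested. Of 11 tested chromatin-binding genes of other HMG families, which share a name with the Hmga genes, Hmgb2 and Hmgn2 were called higher and 0 lower. The list median was 0.62. Hmgb2, a DNA-bending protein of dividing cells, rose from 42.2 ± 30.9 CPM (SD, n = 4) to 342 ± 13.9 CPM (SD, n = 3), with a log2 fold change of 3.01 (SE 0.48, edgeR adjusted p = 0.0028). Hmgn2 passed the 2-fold line narrowly, with a log2 fold change of 1.00 (SE 0.19, edgeR adjusted p = 0.0043), and this list had 1 gene called higher when any 1 of the 7 pieces was left out. Hmgb1, an abundant nuclear protein, was not called (log2 fold change -0.11, SE 0.12).

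Of 21 partners of the Igf2bp proteins and of the m6A machinery, whose mark on mRNA the Igf2bp proteins read, 1 was called higher and 0 lower, with a median of 0.58. That gene was Pabpc1, which binds the poly(A) tail, with a log2 fold change of 1.40 (SE 0.25, edgeR adjusted p = 0.0036), and 2 genes were called higher without KO + NM1 piece 01. Of 9 receptors and adaptors of Igf2 signalling, only Igf1r, which transmits the Igf2 signal, was called, from 6.20 ± 1.54 CPM (SD, n = 4) to 17.0 ± 1.34 CPM (SD, n = 3), with a log2 fold change of 1.45 (SE 0.25, edgeR adjusted p = 0.0033). Igf2r, which clears Igf2, was not called (log2 fold change 0.15, SE 0.27). In that list 2 genes were called higher without KO + NM1 piece 01, and 1 was called lower without KO + NM1 piece 02.

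**Figure D5:**
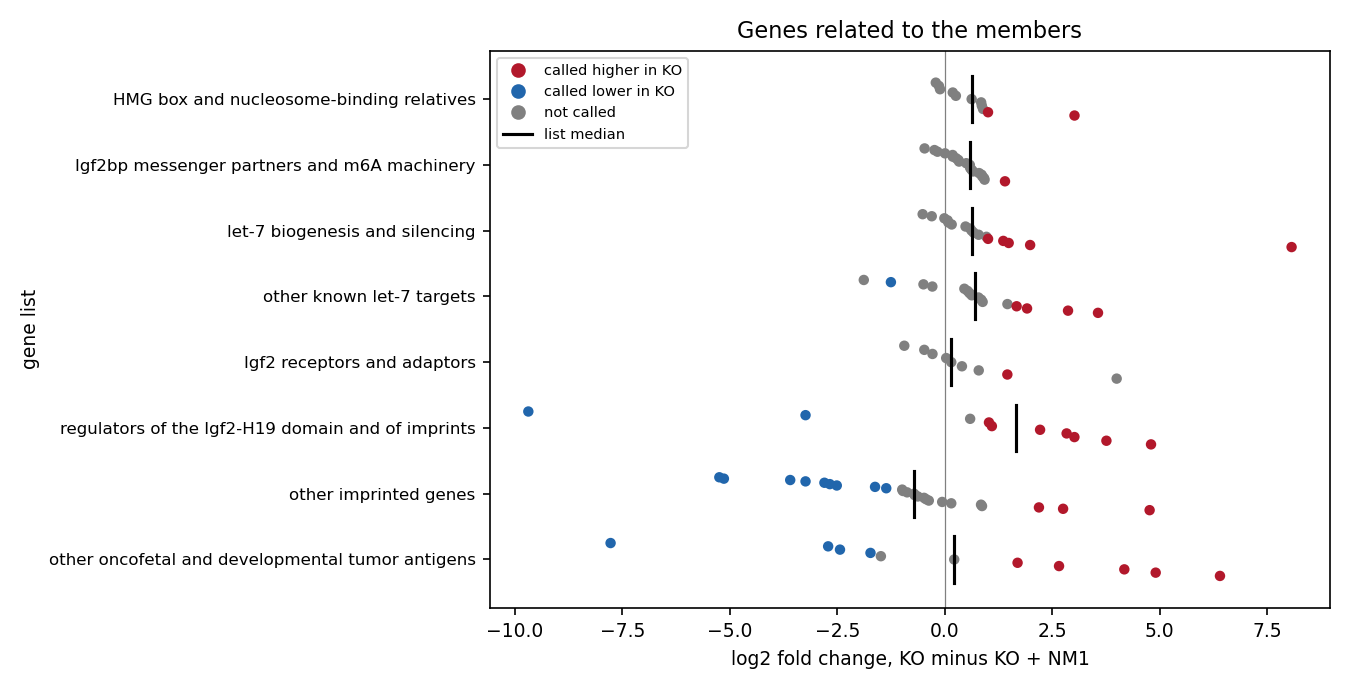
Log2 fold change (KO minus KO + NM1) of each tested gene in 8 lists of related genes, red where called higher in the KO pieces, blue where called lower and grey where not called, with list medians as black bars and Ctcfl, at 0 counts in KO, drawn at its fitted value. The regulators of the Igf2-H19 domain and of imprints have the highest median (1.65) and the other imprinted genes the lowest (-0.72).

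Regulators of the Igf2-H19 domain and of imprints were called in 9 of 10 tested genes, with a median log2 fold change of 1.65. Of these, 7 were higher and 2 lower, beside 17.1% and 20.3% of all genes tested. The higher calls numbered 5 without KO piece 01, 02 or 03 or KO + NM1 piece 02 or 03, and 7 without KO + NM1 piece 01. Uhrf1, which brings Dnmt1 to newly copied DNA, rose from 8.38 ± 9.61 CPM (SD, n = 4) to 233 ± 23.4 CPM (SD, n = 3), with a log2 fold change of 4.80 (SE 0.75, edgeR adjusted p = 0.0033). Plag1, an activator of Igf2, rose from 0.335 ± 0.168 CPM (SD, n = 4) to 4.58 ± 1.69 CPM (SD, n = 3), with a log2 fold change of 3.76 (SE 0.46, edgeR adjusted p = 0.0012). Zfp57 (2.83) and Zfp445 (3.01), zinc finger proteins that keep methylation at imprints, and Dnmt1 (2.21) were also called higher, as were Trim28 and Plagl2. Ctcf, which insulates H19 from Igf2, was not called (log2 fold change 0.59, SE 0.31, edgeR adjusted p = 0.152). Its germline relative Ctcfl had 0 counts in all KO pieces and 14, 105, 138 and 97 in the KO + NM1 pieces, at least 109-fold lower in KO (edgeR adjusted p = 0.0061). Plagl1, an imprinted zinc finger gene, fell by 3.24 on the log2 scale (SE 0.66, edgeR adjusted p = 0.0098). Uhrf1 and Dnmt1 are also known as genes of dividing cells, whose markers were higher in the KO pieces, and this was not tested.

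More of the other imprinted genes were called lower than higher, as Dlk1 and Peg3 were. Of 25 tested, 3 were called higher and 9 lower, beside 17.1% and 20.3% of all genes tested, with a median log2 fold change of -0.72. The lower calls numbered 5 without KO + NM1 piece 02, 6 without KO piece 01, KO piece 02, KO + NM1 piece 03 or KO + NM1 piece 04, and 13 without KO + NM1 piece 01. Nap1l5, a relative of nucleosome assembly proteins, was at 0.157 ± 0.0359 CPM (SD, n = 3) against 6.14 ± 3.00 CPM (SD, n = 4), with a log2 fold change of -5.25 (SE 0.55, edgeR adjusted p = 9.4e-04). Nnat, a small membrane protein, fell from 761 ± 441 CPM (SD, n = 4) to 21.6 ± 10.9 CPM (SD, n = 3), with a log2 fold change of -5.14 (SE 0.68, edgeR adjusted p = 0.0027). Against this direction, the amino acid transporter Slc38a4 rose by 2.75 (SE 0.35, edgeR adjusted p = 0.0013) and Peg12 by 2.19 (SE 0.30, edgeR adjusted p = 0.0015). Meg3 and Rian, non-coding RNAs of the Dlk1 domain, were not called (log2 fold change -0.99 and -0.63), and Zim1, a neighbour of Peg3, was called lower (-2.52).

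Other oncofetal and developmental tumor antigens had no common direction. Of 11 tested, 5 were called higher (3 without KO piece 01) and 4 lower, with a median of 0.22. Afp, the fetal serum protein, was at 6.20 ± 3.35 CPM (SD, n = 3) against 0.195 ± 0.357 CPM (SD, n = 4), with a log2 fold change of 4.90 (SE 1.29, edgeR adjusted p = 0.0205). Sox11, a transcription factor of the embryonic nervous system, rose by 4.17 (SE 0.65, edgeR adjusted p = 0.0026). Ptn, a secreted growth factor, fell from 627 ± 291 CPM (SD, n = 4) to 2.86 ± 1.93 CPM (SD, n = 3), with a log2 fold change of -7.78 (SE 0.63, edgeR adjusted p = 8.6e-04). Gpc3, a cell surface proteoglycan that restrains growth, fell by 2.72 (SE 0.56, edgeR adjusted p = 0.0095).

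The genes most like Hmga2 and Igf2 over the 7 libraries were found by the root mean square difference of log2 CPM centred on each gene's mean, among 14904 genes, as a description. For Hmga2 they included the homeobox genes Esx1 (0.23), Nkx2-5 (0.59) and Alx1 (0.60). Esx1 was at 54.8, 26.1 and 29.0 CPM in the KO pieces and at 0, 0.0407, 0.0494 and 0.411 CPM in the KO + NM1 pieces, so it too was highest in KO piece 01 and, in its group, in KO + NM1 piece 04. For Igf2 they were Fgf13 (0.12), Kctd15 (0.12), Lmo7 (0.20) and Gprc5c (0.22). Kctd15 was at 2.47, 15.5 and 8.62 CPM in the KO pieces and at 7.95, 31.5, 28.9 and 25.7 CPM in the KO + NM1 pieces, low in piece 01 of each tumor as Igf2 was.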

How the data were processed

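RNA from 3 KO and 4 KO + NM1 tumor pieces was sequenced from NEBNext Ultra II libraries. Per the labels and the submitters' processing notes, the authors trimmed reads with Trimmomatic 0.36, aligned them to GRCm38 (mm10) with HISAT2 2.0.4, sorted them with SAMtools 0.1.19 and counted them per gene with HTSeq. The deposited files hold raw read counts, without normalization, of 46603 Ensembl genes, and 46091 of them matched a GENCODE M21 symbol. The annotation release and strand option are not given in the sources used here, so antisense reads could not be separated.

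The analysis used edgeR 4.0.16 in R 4.3.3. Low genes were removed with filterByExpr (minimum count 10), libraries were scaled by TMM, and KO was set against KO + NM1 with the quasi-likelihood test. P-values of the 16887 remaining genes were adjusted after Benjamini and Hochberg. Standard errors used the fitted information and moderated dispersion. The biological coefficient of variation was 46.7%. Libraries held 24088309 to 28326568 counts. TPM used merged exon lengths. No library was a repeat of another of its group, with a chi-square per degree of freedom of 35.2 to 687. P-values measure the spread between pieces, which may be technical. A gene with at most 3 counts in a group was given as a ratio with an exact 95% counting interval, or against a floor of 3 counts over the group where it had none. MicroRNA sequences came from RefSeq, and UTR sequences from GENCODE M21 transcripts (GRCm38). Mirlet7bhg was not matched.

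The genes, the lists of related genes and markers and the tests were chosen with earlier results of these data known, so no list is independent support. Genes named from a list were the 2 largest rises and 2 largest falls among called genes with a mean of at least 1 CPM. Other listed genes were named for their role or value, after the values were seen. A few genes named by the rules for lists and for likeness are not reported here. The alternatives were DESeq2 size factors, upper-quartile scaling, library size alone, mitochondrial genes left out, no filter, at least 10 counts in every library, the DESeq2 1.42.0 Wald test, calls without the fold limit, a block for the replicate number and each piece left out. The steps were tested on simulated data.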

Additional observations from a re-analysis of the deposited data

Results flagged for a closer look

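In the 4 KO + NM1 pieces, 5 of 21 values checked (the 10 genes and 11 summed marker lists) had a piece far from the others, with a gap to the nearest piece, as a share of the whole range, above Dixon's 95% critical value. Chance flags about 1 in 20 groups, and the values of 1 piece are not independent of each other. Hmga1 was high in KO + NM1 piece 01 (15.4 CPM against 5.68 to 6.22 CPM, ratio 0.944). The proliferation markers (286 CPM against 89.0 to 118 CPM, ratio 0.853), the macrophage markers (2588 CPM against 735 to 1025 CPM, ratio 0.844) and the B and plasma cell markers (7084 CPM against 209 to 271 CPM, ratio 0.991) were high in the same piece. Lin28b was above 0 only in KO + NM1 piece 04 (ratio 1), from 2 counts against 0 in each of the others, which is under the floor of 3 counts.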

How the results depend on the processing

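The direction of each of the 10 genes was the same in every one of the 15 alternatives in which it could be fitted. The number of members called was 7 higher and 2 lower. It was 3 higher and 1 lower when at least 10 counts were required in every library, a filter under which fewer members were tested. It was 7 higher and 3 lower without KO + NM1 piece 01, which added Igf2. With the adjusted p alone, 4345 genes in all and 50 genes of the related lists were higher. With the 8mer, 634 coding genes held a let-7 match. The log2 fold change ranged from 7.62 to 8.84 for Hmga2, 8.70 to 9.97 for Igf2bp1, 5.06 (without KO piece 01) to 8.22 for Lin28b (8.21 without KO + NM1 piece 04), -2.14 to -1.03 for Igf2, 4.16 to 5.20 for H19 and -6.09 to -4.65 for Dlk1. The 8.22 of Lin28b came from the block for the replicate number, with a standard error of 2123, so it does not measure the fold. Without KO + NM1 piece 04 the group held 0 counts of Lin28b, so the 8.21 is set by the fit. With the longest transcript as length, the mean KO TPM of Hmga2 (131), Igf2bp2 (36.5) and Igf2bp3 (9.09) moved by more than the spread between pieces. Of 256 counts by list and setting, 224 lay within 1.5 times the reported count and 32 beyond. The median of all genes moved by -0.16 with upper-quartile scaling, by 0.17 with library size alone and by -0.11 with no filter. Piece numbers did not pair the pieces (correlations of deviations 0.0802, 0.102 and -0.0165 for numbers 01 to 03). With the number as a block, 2437 genes were higher and 2493 lower, 7 and 3 of the members, and 27 and 13 genes of the related lists. Genes with a few reads in a group, such as Igf2bp1, Lin28b and Dlk1, have folds limited by depth.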
